A study of Homo sapiens with 12 samples.

Results

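The set holds 44 proteasome genes, found as every annotated symbol that reads PSM, a letter from A to G, and digits. Of these, 41 were kept because at least 1 of their probes were detected at a p-value under 0.01 on 3 or more arrays out of 12. The 44 genes had 70 probes, of which 58 were kept, out of 20909 kept probes on the arrays. Each of the 41 members was read by its brightest kept probe, as were all of the 12337 genes measured. The rule uses the symbol and the detection, and no difference between groups. It found no probe for PSMA7, PSMC5, PSMD7 or PSMD13, which encode further subunits of the alpha ring, the base and the lid. The set is thus not the whole proteasome.

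The proteasome is the enzyme complex that degrades proteins marked with ubiquitin. Its barrel-shaped core is built of alpha rings, which gate the entry, and beta rings, which hold the protein-cutting sites, and its regulatory particle has a base of ATPases that unfold substrates and a lid that removes ubiquitin. Dedicated chaperones assemble the complex, activators cap the core in place of the regulatory particle, and interferon can replace the catalytic subunits by inducible ones (the immunoproteasome). Transcription of proteasome genes is known to be raised by the factors NFE2L1 and NFE2L2, which bind antioxidant response elements, and 15d-PGJ2, an electrophilic prostaglandin, is a known activator of NFE2L2.

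RNA came from a pair of isogenic HEK293 lines, a human embryonic kidney line, which stably express either a glucocorticoid receptor that cannot be SUMOylated (GR3KR) or the wild-type receptor (wtGR). The 4 groups were GR3KR cells with dexamethasone plus 15d-PGJ2, GR3KR cells with dexamethasone alone, wtGR cells with dexamethasone plus 15d-PGJ2, and wtGR cells with dexamethasone alone, each measured on 3 Illumina BeadChip arrays. Dexamethasone, a synthetic glucocorticoid, was given at 100 nM in all 4 groups and 15d-PGJ2 at 5 µM, for 6 h, so no group shows the cells without dexamethasone. Each receptor form is represented by 1 line, so the receptor form cannot be told apart from any other difference between the lines, and nothing states that the 3 arrays of a group came from separate cultures, so the p-values rest on the spread among these samples, which may be technical.

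The arrays of GR3KR cells with 15d-PGJ2 stood apart. Arrays 1, 2 and 3 of that group detected 15223, 14207 and 17032 probes, against 17959 to 19950 on the other 9 arrays. They detected 49, 49 and 52 of the 58 kept proteasome probes, against 53 to 57 on the other 9. A probe index was taken as the first principal component of the differences between the 2 brightest kept probes of 3228 genes, and it was -0.618, -0.557 and -0.129 on these 3 arrays, against -0.116 to 0.236 on the other 9. The lowest of those 9 was array 3 of wtGR cells with dexamethasone alone. The index orders the arrays by a shared shift between probes of the same gene. Counts that rest on GR3KR cells with 15d-PGJ2 are given with and without arrays 1 and 2. The index was lower on each array of that group than on any other array. A fit with the index as a covariate thus cannot separate the index from that group. Calls lost in such a fit decide nothing about single genes. Among markers, NEFL, INA, VIM, CDH2 and KRT8 were detected on all 12 arrays, NEFM on 3, KRT18 on 5 and PAX2 on 0. The leukocyte genes PTPRC and CD3E and the endothelial genes PECAM1 and CDH5 were at 0 arrays, while COL1A1 and CD14 were detected on 12. The probe in use for NR3C1, the receptor gene itself, read between 5.42 and 6.28 log2 units and was detected on 10 arrays, and its other listed probes were detected on 2 and 0 arrays, so the level of the introduced receptors could not be read from it.

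Most of the kept members were well measured in all groups. The probe in use was detected on all 12 arrays for 38 of the 41 members. These are the alpha ring genes PSMA1 to PSMA6, the beta ring genes PSMB1 to PSMB7, the inducible PSMB10, the base ATPases PSMC1, PSMC2, PSMC3 and PSMC6, the base subunits PSMD1, PSMD2 and PSMD4, the lid subunits PSMD3, PSMD6, PSMD8, PSMD11, PSMD12 and PSMD14, the assembly chaperones PSMD5, PSMD9, PSMD10 and PSMG1 to PSMG4, and the activators PSME1 to PSME4. PSMB8 was detected on 10 arrays, PSMB9 on 9 and the base ATPase PSMC4 on 8. PSMB8 and PSMB9 encode inducible subunits of the immunoproteasome. The 3 genes not kept are PSMA8 and PSMB11, which encode subunits of testis and thymus proteasomes, and PSMF1, which encodes a proteasome inhibitor, and their probes were detected on 0 arrays. The SD of the log2 intensity over the 3 arrays of a group had a median over the members of 0.27 in GR3KR cells with 15d-PGJ2, 0.08 in GR3KR cells with dexamethasone alone, 0.15 in wtGR cells with 15d-PGJ2 and 0.25 in wtGR cells with dexamethasone alone. GR3KR cells with dexamethasone alone were thus the tightest group for these genes. PSMC4 had the largest SD in each group but GR3KR cells with 15d-PGJ2, where PSMG2 had it at 1.58.

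**Figure D1:**
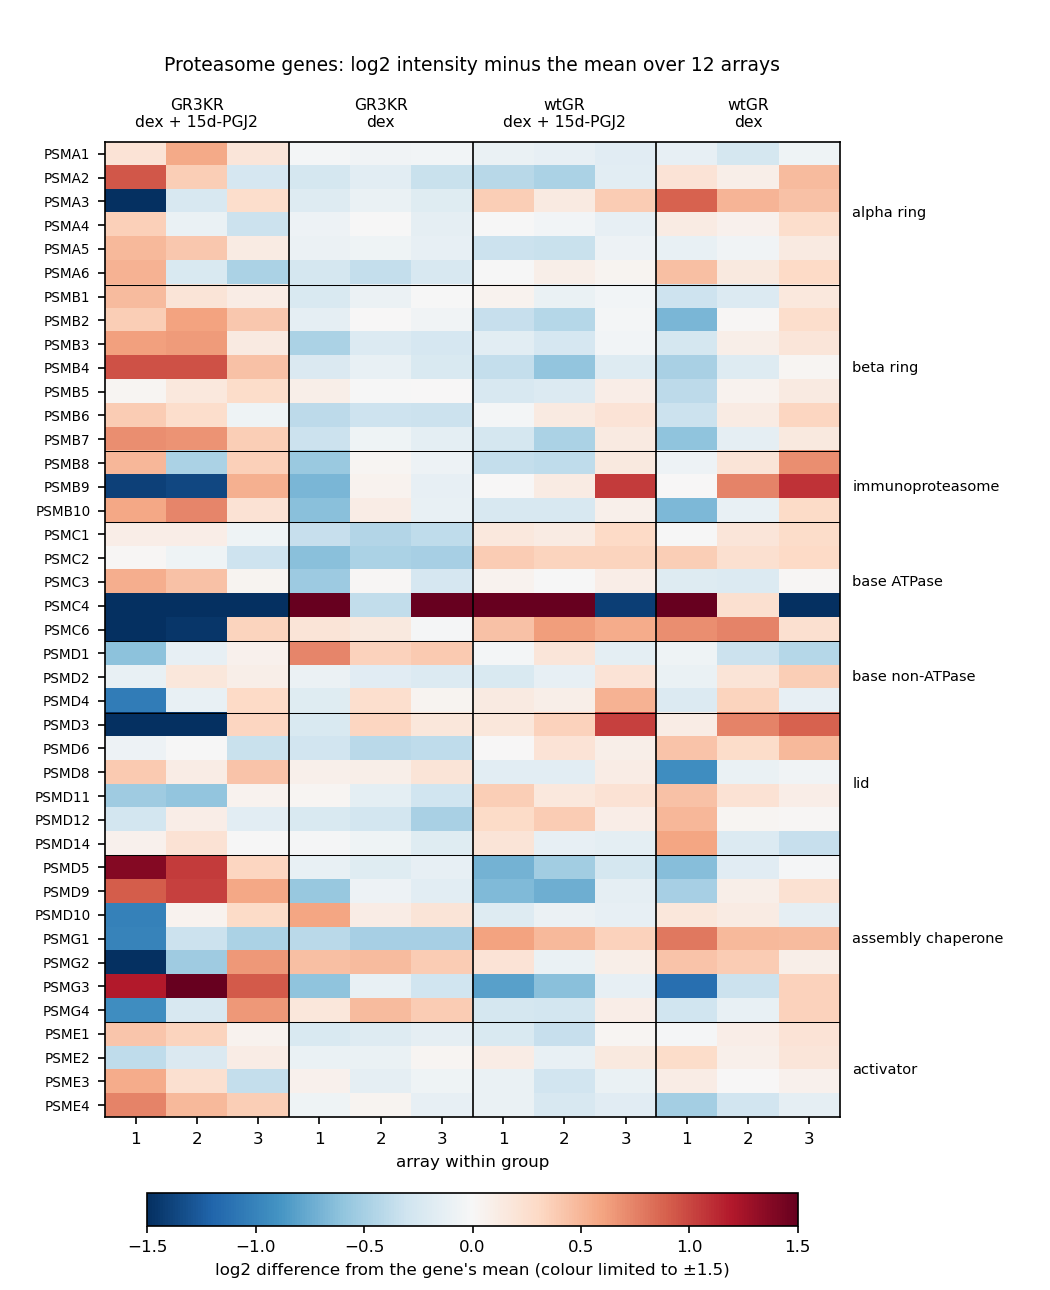
Heat map of the log2 intensity of the 41 members (rows, ordered by role) on the 12 arrays (columns, 3 per group), each minus that gene's mean over the 12 arrays, with the colour limited to differences of 1.5 either way. The columns of GR3KR cells with 15d-PGJ2 carry most of the strong colours, arrays 1 and 2 more than array 3, and PSMC4 changes sign within 3 of the 4 groups.

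PSMC4 was the member with the widest swings. Its probe in use read 4.61, 4.75 and 4.85 in GR3KR cells with 15d-PGJ2, against 10.86, 7.65 and 10.27 in GR3KR cells with dexamethasone alone. It read 11.27, 11.32 and 6.61 in wtGR cells with 15d-PGJ2, against 10.59, 8.26 and 5.26 in wtGR cells with dexamethasone alone. Within each of the other 3 groups 1 array lay far below the highest, and GR3KR cells with 15d-PGJ2 had all 3 arrays low and undetected. The other kept probes of PSMC4 went the same way array by array, at 4.51 to 4.7 log2 units in GR3KR cells with 15d-PGJ2. Ranked by the probe index over all arrays, the readings of the probe in use rose without a reversal. The index was 0.233, 0.0969 and 0.172 in GR3KR cells with dexamethasone alone, in the same array order. In wtGR cells it was 0.233, 0.236 and 0.0958 with 15d-PGJ2. It was 0.214, 0.139 and -0.116 with dexamethasone alone. The PSMC4 differences called below come from fits that do not account for the index. Whether these swings come from the cells or from the arrays was not tested.

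The effect of 15d-PGJ2 in wtGR cells was the first comparison. None of the 41 members passed the test (0 called, limma, adjusted p under 0.05 over all 12337 genes), where 0.219% of all genes did. An unadjusted p under 0.05 was found for 1 member and for 1212 of the 12337 genes. The members' median log2 difference, 15d-PGJ2 minus dexamethasone alone, was -0.12, beside -0.07 over all genes. Of the 41 differences 13 were positive and 28 negative, where 40.8% of all genes were positive. With median scaling 1 was positive and 40 negative, with a members' median of -0.47 beside -0.37 over all genes, and 0 called. With that scaling 15 members had an unadjusted p under 0.05, as did 3188 of the 12337 genes. The arrays with 15d-PGJ2 lay wholly below those without it for 6 members and wholly above for 0, where 14.2% and 6.84% of all genes did so. In RNA from a culture, a difference in all cells and one in some of the cells cannot be told apart.

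PSMA2, an alpha ring subunit, had the smallest p in wtGR cells. It read 7.67, 7.61 and 7.93 with 15d-PGJ2, against 8.3, 8.18 and 8.56 with dexamethasone alone. The groups did not overlap, but the log2 difference of -0.61 (SE 0.26, 95% interval -1.17 to -0.04) had an adjusted p of 0.475. Next came PSMD6 at -0.30 (SE 0.14), PSMD9 at -0.45 (SE 0.25) and PSME1 at -0.27 (SE 0.16), with adjusted p-values of 0.537, 0.586 and 0.607. All 7 assembly chaperones had negative differences on the probe in use, between -0.45 and -0.11, none of them called, where 40.8% of all genes were positive. With the mean of kept probes PSMD10 was at 0.39 (SE 0.58), not called, and the others stayed negative.

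None of the subunits that cut proteins was called in wtGR cells. The log2 differences of the constitutive catalytic subunits were -0.05 (SE 0.17) for PSMB5, 0.07 (SE 0.19) for PSMB6 and 0 (SE 0.22) for PSMB7. Those of their inducible counterparts were -0.47 (SE 0.30) for PSMB8, -0.22 (SE 0.51) for PSMB9 and 0.03 (SE 0.27) for PSMB10. Among the regulatory particle, PSMD4, a ubiquitin receptor, was at 0.25 (SE 0.31), PSMD14, which removes ubiquitin chains, at -0.03 (SE 0.23), and the lid subunits PSMD11 and PSMD12 at -0.01 (SE 0.19) and 0.08 (SE 0.18). The activators PSME2 and PSME4 were at -0.13 (SE 0.16) and 0.14 (SE 0.16). PSMC4 was at 1.70 with an SE of 1.46, the widest error of the list.

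In GR3KR cells, 14 of the 41 members were higher and 2 lower with 15d-PGJ2 (limma, adjusted p under 0.05), where 30.7% of all genes were called higher and 14.8% lower, 45.5% in all. This count depends on arrays 1 and 2, and so does the count over all genes. The members' median difference was 0.22, beside 0.26 over all genes. Arrays with 15d-PGJ2 lay wholly above those without it for 18 members and wholly below for 2, where 37.7% and 16.4% of all genes did so. Without arrays 1 and 2 of that group, the members' median difference was 0.23, beside 0.14 over all genes. Of the 41 differences 34 were then positive, where 62.3% of all genes were. On all arrays 28 were positive, where 62.9% of all genes were. The lone array left is then assumed to vary like the other groups. With the probe index as a covariate, 0 members and 0% of all genes were called. The index was 0.0969 to 0.233 in GR3KR cells with dexamethasone alone and below 0 on each array with 15d-PGJ2. That fit therefore cannot tell a 15d-PGJ2 effect from the index. With cyclic loess in place of quantile normalization, 8 members were called higher and 3 lower, where 2242 and 2075 of the 12337 genes were. With median scaling 4 members were called higher and 3 lower, where 524 and 2358 of all genes were.

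The largest rise in GR3KR cells was that of PSMG3, an assembly chaperone of the core. It read 10.38, 10.78 and 10.11 with 15d-PGJ2, against 8.59, 9.08 and 8.9 with dexamethasone alone. All 3 arrays with 15d-PGJ2 were higher, and the difference was 1.57 (SE 0.34), 2.97-fold, with an adjusted p of 0.00871. On array 3 alone against the same controls it was 1.22 (SE 0.48), with an adjusted p of 0.234.

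The base chaperones PSMD9 and PSMD5 came next. PSMD9 read 8.09, 8.2 and 7.76 with 15d-PGJ2, against 6.61, 7.1 and 7.02 with dexamethasone alone, a difference of 1.10 (SE 0.25, adjusted p = 0.00897). PSMD5 read 8.03, 7.7 and 6.98 with 15d-PGJ2, against 6.55, 6.47 and 6.53 without it, a difference of 1.05 (SE 0.26, adjusted p = 0.0116). In both genes arrays 1 and 2 were the highest, and without them the differences were 0.84 (SE 0.35) for PSMD9 and 0.47 (SE 0.26) for PSMD5. With median scaling neither was called, at 0.37 for PSMD9 and 0.27 for PSMD5, with adjusted p-values of 0.222 and 0.385.

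Of the constitutive beta ring, 4 of 7 members rose in GR3KR cells and 7 of 7 had positive differences, where 30.7% of all genes were called higher and 62.9% were positive. Without arrays 1 and 2 or with the probe index as a covariate these calls were lost, as were nearly all or all calls over all genes. PSMB4, a subunit with no cutting site, read 13.1, 13.09 and 12.58 with 15d-PGJ2, against 11.92, 12.03 and 11.91 with dexamethasone alone. That difference was 0.97 (SE 0.20, 1.96-fold, adjusted p = 0.00717), the smallest p among the members in this comparison, and it was 0.61 (SE 0.23) without arrays 1 and 2. PSMB3, also without a cutting site, was at 0.78 (SE 0.19, adjusted p = 0.0109), and 0.44 (SE 0.21) without those arrays. The catalytic PSMB7 and PSMB6 were called at 0.75 (SE 0.22) and 0.53 (SE 0.19), while PSMB5 was at 0.12 (SE 0.17) and not called. PSMB10, the inducible counterpart of PSMB7, was called at 0.71 (SE 0.27, adjusted p = 0.0496), while PSMB8 and PSMB9 were at 0.32 (SE 0.30) and -0.50 (SE 0.51). Leaving arrays 1 and 2 out, the differences were 0.54 for PSMB7, 0.27 for PSMB6 and 0.40 for PSMB10.

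Other called rises were smaller. The base ATPases PSMC3, PSMC1 and PSMC2 were at 0.61 (SE 0.19), 0.44 (SE 0.14) and 0.41 (SE 0.14), the alpha ring subunit PSMA5 at 0.43 (SE 0.15), and the activators PSME4 and PSME1 at 0.58 (SE 0.16) and 0.46 (SE 0.16). None of the 6 lid members was called, with PSMD11, PSMD12 and PSMD14 at -0.22 (SE 0.19), 0.22 (SE 0.18) and 0.18 (SE 0.23), nor were PSMD4 at -0.32 (SE 0.31) and PSME2 at -0.11 (SE 0.16). The called falls were PSMC4, whose 3 arrays with 15d-PGJ2 were all below detection and at least 11.3-fold lower (adjusted p = 0.0222), and PSMD1, a scaffold subunit of the base, at -0.72 (SE 0.20, adjusted p = 0.0185). PSMC4 was also undetected on array 3, and it was not called without arrays 1 and 2 (adjusted p = 0.283). Without those arrays PSMC3, PSMC1 and PSMC2 were at 0.30, 0.33 and 0.22, PSMA5 at 0.22, PSME4 and PSME1 at 0.41 and 0.23, and PSMD1 at -0.41, none called.

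Leaving out each of the 12 arrays in turn, 5 of the 16 calls in GR3KR cells stayed in all 12 fits. They were those of PSMB3, PSMB4, PSMD5, PSMD9 and PSMG3. The share of calls over all genes that stayed in all 12 fits was not counted. The 5 are thus not shown to be firmer than the calls of other genes. The count of called members ran from 5, without array 1 of GR3KR cells with dexamethasone alone, to 27, without array 3 of GR3KR cells with 15d-PGJ2. Over all 12337 genes these 2 fits called 2551 and 7693. The members' count was 6 without array 1 and 7 without array 2 of GR3KR cells with 15d-PGJ2, where 2947 and 2501 genes were called. It was 6 without array 3 of GR3KR cells with dexamethasone alone, where 3254 genes were. These 5 genes kept positive differences without arrays 1 and 2, and PSMD5 was at -0.02 (SE 0.26) with the probe index as a covariate.

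**Figure D2:**
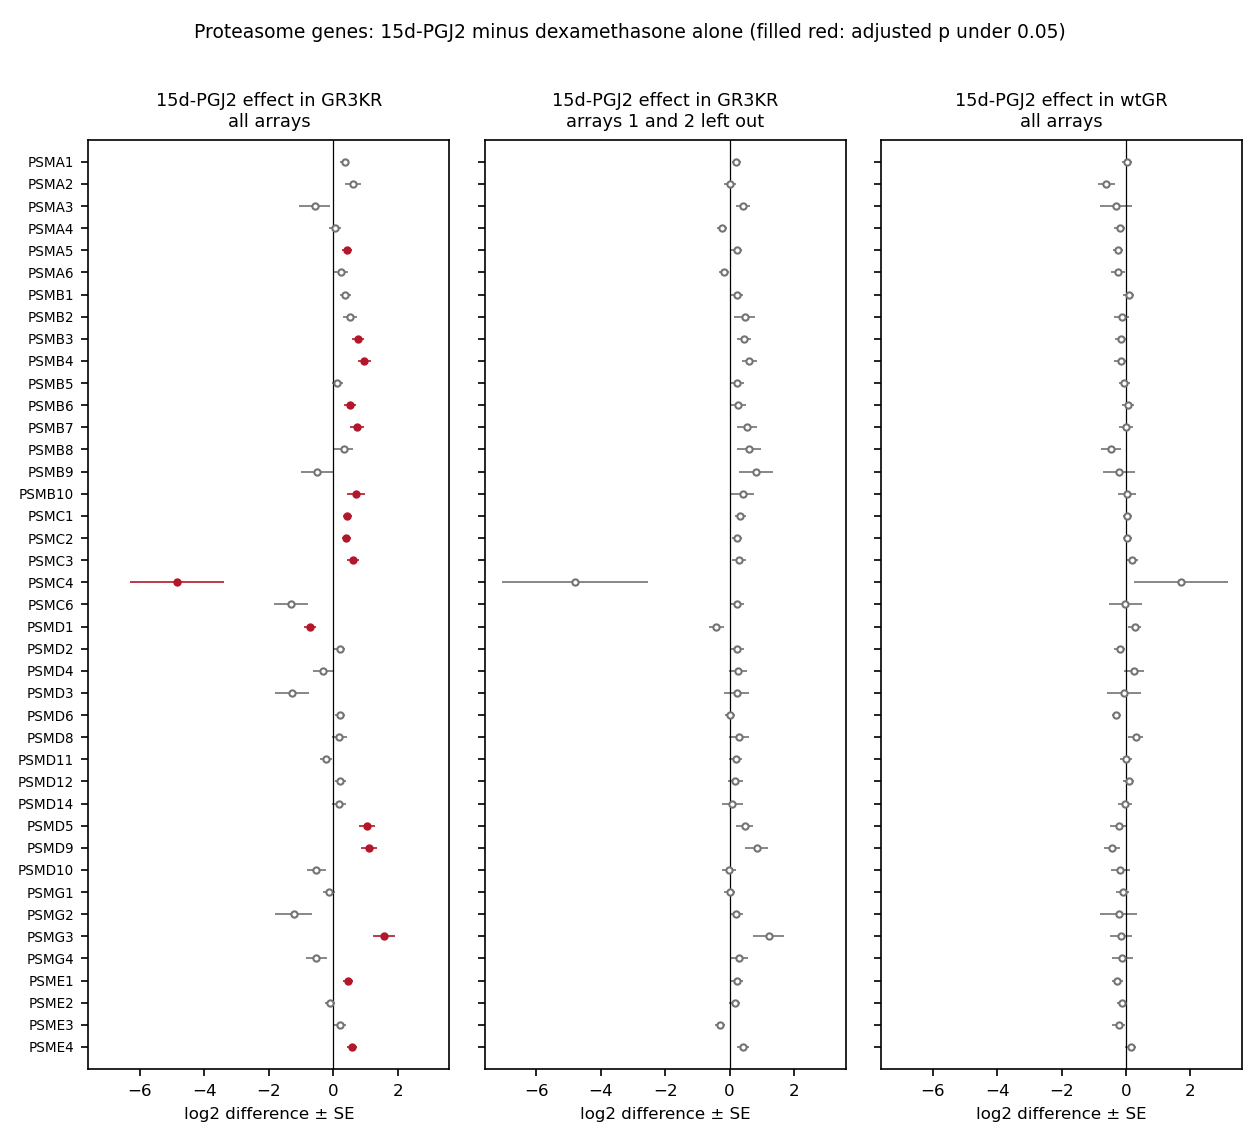
Log2 difference, 15d-PGJ2 minus dexamethasone alone, for each of the 41 members with its standard error, in GR3KR cells on all arrays (left), in GR3KR cells without arrays 1 and 2 of the 15d-PGJ2 group (middle) and in wtGR cells (right). Filled red points have an adjusted p under 0.05, 16 on the left and 0 on the right. The middle panel rests on 1 array with 15d-PGJ2, and in that fit nearly all calls over all genes were lost as well.

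Different probes of the same gene often went opposite ways in GR3KR cells. Of the 41 members, 27 had 1 kept probe and 14 had more, and in 8 of those 14 the kept probes differed in sign. The 17 kept probes not in use had a median difference of -1.55, with 12 negative, 6 called lower and 2 called higher. The 41 probes in use had a median of 0.22. The higher calls include a PSMC6 probe that passed the detection filter only through GR3KR cells with 15d-PGJ2. When every kept probe was tested as a feature of its own, 44.8% of 20909 probes were called, and in the comparisons of the lines 4.62% under dexamethasone alone and 50.7% with 15d-PGJ2. In wtGR cells the same 17 probes had a median of 0.29, and 3 of the 14 genes had probes that differed in sign, PSMA6 at 0.41 against -0.25 in use, PSMD6 at 0.48 against -0.30, and PSMD10 at 1.07 and 0.29 against -0.18. None of these was called.

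PSMA1, an alpha ring gene, shows the contrast within 1 gene. Its probe in use read 11.87, 12.24 and 11.85 in GR3KR cells with 15d-PGJ2, against 11.64, 11.62 and 11.63 with dexamethasone alone, a difference of 0.35 (SE 0.15, adjusted p = 0.0681). Its other kept probe read 5.33, 4.94 and 5.98 with 15d-PGJ2, against 9.22, 8.53 and 9.09 with dexamethasone alone, a difference of -3.53 (SE 0.70, adjusted p = 0.00732). That probe was detected on 1 of the 3 arrays with 15d-PGJ2 and was at least 6.76-fold lower there. On it the groups lay far apart, and array 3 of wtGR cells with dexamethasone alone was also low at 5.74, against 8.94 and 8.53 on the other arrays of its group.

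PSMD10, a base chaperone, had probes that differed in size and not in sign. Its probe in use was at -0.53 and not called. Its other kept probes were detected on 1 and 0 of the 3 arrays with 15d-PGJ2, and were at least 10.6-fold lower (adjusted p = 0.00929) and at least 2.53-fold lower (adjusted p = 0.0153). The other probe of PSMA6 was at -1.99 against 0.23 for the probe in use, that of PSMA4 at -1.53 against 0.05, and that of PSMC1 at -1.55 against 0.44. The second probe of the lid gene PSMD6 was at -1.57, against 0.21 in use. That of PSMC6 was undetected on all 3 arrays with dexamethasone alone and detected on 2 of 3 with 15d-PGJ2. It was called higher with no bound to give, against -1.31 in use. This probe passed the detection filter only through the group where it is high, so its call is no support for a rise. PSME1 was the member with both kept probes called, at 1.13 (SE 0.25) and 0.46 (SE 0.16), both higher. The probes of PSMA3 were at 0.47 and -0.58, and those of PSME3 at 0.46 and 0.20, with none of these called, and the probes of PSMB9 were at 0 and -0.50. PSMC4 was called on its probe in use alone. Its others were also undetected on all 3 arrays with 15d-PGJ2, and each was detected on 2 of 3 with dexamethasone alone. They were lower with no bound to give, and not called (adjusted p = 0.129 and 0.187). The files give no position within the transcript for any probe, so what separates these probes was not tested.

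**Figure D3:**
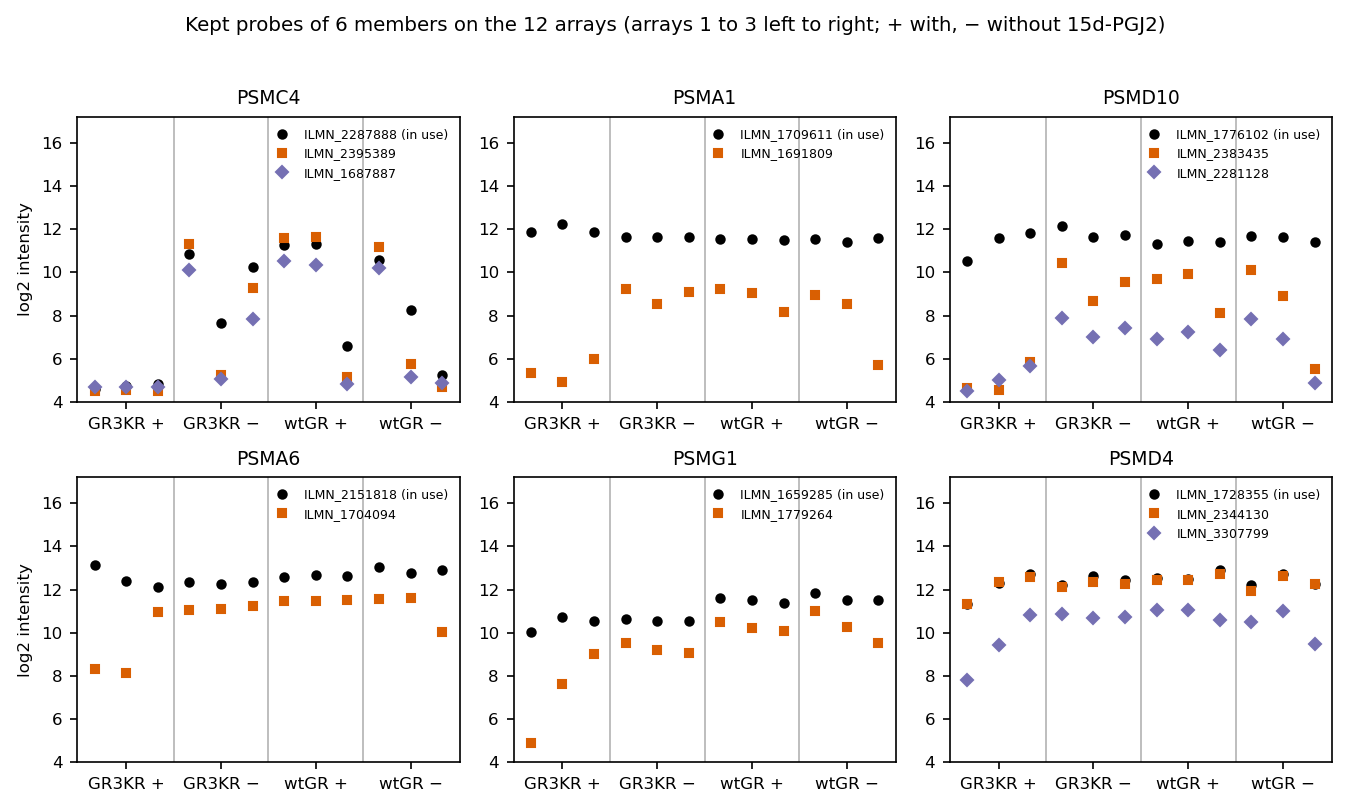
Log2 intensity of every kept probe of 6 members on the 12 arrays, with arrays 1 to 3 left to right within each group, + and − for with and without 15d-PGJ2, and 1 symbol per probe. In PSMA1, PSMD10, PSMA6 and PSMG1 the probes not in use drop on arrays 1 and 2 of GR3KR cells with 15d-PGJ2 by more than the probe in use, and the 3 probes of PSMC4 swing together. The probes not in use of PSMA1 (5.98) and PSMD10 (5.87 and 5.68) are low on array 3 of that group as well.

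The 15d-PGJ2 effect differed between the lines for 10 of the 41 members, 8 with a higher and 2 with a lower effect in GR3KR than in wtGR cells (limma, adjusted p under 0.05), where 17.6% and 7.07% of all genes were called, 24.7% in all. The members' median was 0.37, beside 0.33 over all genes. PSMG3 had the largest positive difference of effects at 1.72 (SE 0.49, adjusted p = 0.0325), followed by PSMD9 at 1.55 (SE 0.35), PSMD5 at 1.28 (SE 0.37), PSMA2 at 1.21 (SE 0.36), PSMB4 at 1.14 (SE 0.28) and PSMB3 at 0.94 (SE 0.26). PSME1 and PSMA5 were at 0.73 (SE 0.22) and 0.67 (SE 0.22), and PSMD1 at -0.99 (SE 0.29). PSMC4 was called at -6.55 (SE 2.06), a fitted value with no exact size because GR3KR cells with 15d-PGJ2 were below detection on all 3 arrays. The catalytic PSMB5, PSMB6 and PSMB7 were at 0.17, 0.46 and 0.76 and the inducible PSMB8, PSMB9 and PSMB10 at 0.79, -0.28 and 0.68, none called. Of the others, PSMD4 was at -0.57, PSMD11 at -0.21, PSMD12 at 0.14, PSMD14 at 0.21, PSME2 at 0.02 and PSME4 at 0.44, also not called. Without arrays 1 and 2 of GR3KR cells with 15d-PGJ2, which leaves 1 array in that group, the members' median was 0.29, beside 0.23 over all genes. Of the 41 differences 37 were then positive, where 65% of all genes were. On all arrays 28 were positive, where 63.5% of all genes were. None of the 10 calls stayed in all 12 fits that left out 1 array, and the share over all genes was not counted. The count fell to 0 without array 2 of GR3KR cells with 15d-PGJ2, array 1 or 3 of GR3KR cells with dexamethasone alone, array 1 or 2 of wtGR cells with 15d-PGJ2, or array 3 of wtGR cells with dexamethasone alone. Those fits called 128 to 699 of the 12337 genes. The count was 2 without array 1 of GR3KR cells with 15d-PGJ2 or array 2 of wtGR cells with dexamethasone alone, where 1252 and 1473 genes were called. It was 6 without array 2 of GR3KR cells with dexamethasone alone (1947 genes), and 17 without array 3 of GR3KR cells with 15d-PGJ2 (6501 genes). Median scaling gave 6 higher and 0 lower, where 860 and 490 of all genes were called. The replicate number as a block gave 4 higher and 1 lower, where 1510 and 715 of all genes were called. Probes not in use differed from the probes in use here too. These were PSMA1 at -4.59 (SE 0.99) against 0.33, PSMC6 at 1.73 (SE 0.50) against -1.29, and, with the same sign, PSMD10 at -5.59 (SE 1.41) and -2.65 (SE 0.89) against -0.35. These probes were below detection on arrays of 1 or more groups, so the values are fitted ones with no exact size. That of PSMC6 passed the detection filter only through GR3KR cells with 15d-PGJ2, where it is high. Other pairs, probe not in use first, were PSMA3 at 0.84 and -0.26, PSMA4 at -1.52 and 0.26, PSMA6 at -2.40 and 0.48, PSMB9 at 0.03 and -0.28, PSMC1 at -2.04 and 0.39, and PSMD6 at -2.04 and 0.51, while the other PSMC4 probes, also undetected in GR3KR cells with 15d-PGJ2, were not called.

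The lines were next compared under dexamethasone alone, which uses none of the 15d-PGJ2 arrays in its group means. In GR3KR cells 4 members were lower and 1 higher than in wtGR cells (limma, adjusted p under 0.05), where 5.53% of all genes were called lower and 2.54% higher, 8.07% in all. The members' median difference, GR3KR minus wtGR, was -0.14, beside -0.03 over all genes. Arrays of GR3KR cells lay wholly below those of wtGR cells for 13 members and wholly above for 4, where 21.4% and 14.3% of all genes did so. With the replicate number as a block 3 of the 5 were called, PSMC2, PSMG1 and PSMD6, while PSMC1 and PSMD1 had adjusted p-values of 0.0683 and 0.0825. With each gene read by the mean of its kept probes 2 were called, PSMC2 and PSMD1, while PSMG1 was at -1.03 (adjusted p = 0.229), PSMD6 at -0.47 and PSMC1 at -0.56. Of the 12337 genes 781 were called with the block and 899 with the mean. All 5 calls held with the probe index as a covariate and without arrays 1 and 2 of GR3KR cells with 15d-PGJ2, where PSMA2 at -0.50, PSMA3 at -0.76 and PSMA6 at -0.58 were called lower as well, 8 in all where 17.6% of all genes were called. With the index 6 were called, where 17.7% of all genes were, with PSMD11 at -0.49 added. With cyclic loess the split was 4 lower and 0 higher, where 843 and 504 of all genes were called. With median scaling it was 5 lower and 0 higher, where 1808 and 113 of all genes were.

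Promoter sequences of these 5 members, from RefSeq on GRCh38.p14, are shown because the 5 genes are those that differed between the lines before 15d-PGJ2. Each run covers 250 bases before to 50 after the gene start, 5′ to 3′ on the gene's strand, and capitals mark a match to the antioxidant response element TGACNNNGC or to the CCAAT box, read on both strands. The sequences are PSMC2 at chr7:103347393-103347692 on the plus strand, PSMG1 at chr21:39183402-39183701 on the minus strand, PSMD6 at chr3:64023445-64023744 on the minus strand, PSMC1 at chr14:90256303-90256602 on the plus strand and PSMD1 at chr2:231056617-231056916 on the plus strand.
PSMC2: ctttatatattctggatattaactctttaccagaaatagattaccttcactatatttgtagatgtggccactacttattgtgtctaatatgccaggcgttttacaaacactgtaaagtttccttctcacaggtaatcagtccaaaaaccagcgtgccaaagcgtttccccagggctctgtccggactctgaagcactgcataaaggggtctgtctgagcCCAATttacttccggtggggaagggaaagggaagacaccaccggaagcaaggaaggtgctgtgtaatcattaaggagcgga
PSMG1: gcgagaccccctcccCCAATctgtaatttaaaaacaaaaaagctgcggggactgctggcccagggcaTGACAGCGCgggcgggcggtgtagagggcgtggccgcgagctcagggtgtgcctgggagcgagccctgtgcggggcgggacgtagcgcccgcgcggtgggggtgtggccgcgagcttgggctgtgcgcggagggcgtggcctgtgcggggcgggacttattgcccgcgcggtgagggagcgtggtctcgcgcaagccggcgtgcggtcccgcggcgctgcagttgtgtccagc
PSMD6: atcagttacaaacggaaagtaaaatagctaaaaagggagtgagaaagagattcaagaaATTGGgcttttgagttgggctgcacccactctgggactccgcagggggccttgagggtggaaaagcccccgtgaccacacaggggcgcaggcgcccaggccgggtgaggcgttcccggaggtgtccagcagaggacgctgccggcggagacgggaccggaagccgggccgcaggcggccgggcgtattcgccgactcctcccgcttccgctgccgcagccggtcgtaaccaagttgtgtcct
PSMC1: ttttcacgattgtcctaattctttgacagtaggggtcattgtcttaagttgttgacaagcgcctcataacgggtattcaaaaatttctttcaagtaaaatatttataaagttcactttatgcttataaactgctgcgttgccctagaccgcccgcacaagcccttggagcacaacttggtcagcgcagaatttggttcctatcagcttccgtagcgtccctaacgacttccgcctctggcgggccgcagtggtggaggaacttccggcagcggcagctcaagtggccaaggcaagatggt
PSMD1: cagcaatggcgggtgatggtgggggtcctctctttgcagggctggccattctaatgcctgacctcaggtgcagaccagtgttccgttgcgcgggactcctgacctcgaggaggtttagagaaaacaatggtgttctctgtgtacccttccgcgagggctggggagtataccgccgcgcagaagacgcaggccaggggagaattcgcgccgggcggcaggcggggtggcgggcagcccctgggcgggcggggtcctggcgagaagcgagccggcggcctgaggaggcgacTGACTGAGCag

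PSMG1 thus holds both motifs, PSMC2 and PSMD6 a CCAAT box (in PSMD6 on the opposite strand), PSMD1 an antioxidant response element after its start, and PSMC1 neither in this window. Of the 41 members 36 matched the RefSeq table, with 43 promoters. The antioxidant response element stood in 14 of the 43 (32.6%), against 4687 of 35116 promoters in the whole table (13.3%), and the CCAAT box in 17 (39.5%), against 34.6%. A match is a description of letters and no sign of binding. The 14 members with the element had a median 15d-PGJ2 difference of -0.15 in wtGR cells, beside -0.12 for the 22 matched members without it. In GR3KR cells these medians were -0.03 with and 0.22 without the element.

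PSMC2, an ATPase of the base, was the member with the smallest p between the lines. It read 10.75, 10.91 and 10.88 in GR3KR cells with dexamethasone alone, against 11.75, 11.62 and 11.68 in wtGR cells with dexamethasone alone. All 3 GR3KR arrays were lower, by a gap several times the spread within either group, and the difference was -0.83 (SE 0.14, 95% interval -1.14 to -0.53), 1.78-fold lower, with an adjusted p of 0.00496.

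PSMG1, which pairs with PSMG2 to start the assembly of the alpha ring, had the largest fall. It read 10.63, 10.53 and 10.53 in GR3KR cells, against 11.82, 11.52 and 11.51 in wtGR cells. The groups did not overlap, and the difference was -1.06 (SE 0.19, 95% interval -1.47 to -0.64), 2.08-fold lower, with an adjusted p of 0.00734. The second kept probe of PSMG1 was at -1 (SE 0.80), of like size but not called. Its partner PSMG2 was detected on every array, and it read 11.24, 11.26 and 11.16 in GR3KR cells, against 11.21, 11.16 and 10.87 in wtGR cells, overlapping.

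PSMD6, a structural subunit of the lid, read 11.72, 11.61 and 11.63 in GR3KR cells, against 12.44, 12.29 and 12.49 in wtGR cells. The difference was -0.75 (SE 0.14), 1.68-fold lower, with an adjusted p of 0.0105. Its second kept probe was at -0.18 (SE 0.58), and the mean of both probes at -0.47 was not called (adjusted p = 0.407). PSMC1, a base ATPase beside PSMC2, read 12.63, 12.53 and 12.59 in GR3KR cells, against 12.97, 13.16 and 13.25 in wtGR cells. It fell by 0.54 on the log2 scale (SE 0.14, adjusted p = 0.0347), and its second probe was at -0.57 (SE 0.61).

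PSMD1 was the member called higher in GR3KR cells. It read 10.46, 10.08 and 10.13 in GR3KR cells, against 9.67, 9.41 and 9.31 in wtGR cells, a difference of 0.76 (SE 0.20, adjusted p = 0.0448). This call was the least firm, at a difference of 0.79 and no call with cyclic loess, and at an adjusted p of 0.312 with median scaling, where the difference was 0.39. In fits that left out 1 array in turn, PSMC2 and PSMG1 were called in 12 of 12, PSMD6 in 10, PSMC1 in 5 and PSMD1 in 2. The share of calls over all genes that stayed in all 12 was not counted. Without array 2 or array 3 of GR3KR cells with dexamethasone alone, 2 members were called, and without array 1 of that group 3. The count was 3 also without array 1 or 2 of wtGR cells with 15d-PGJ2, or array 2 or 3 of wtGR cells with dexamethasone alone. The fits with 2 or 3 called members called 392 to 743 of the 12337 genes.

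The catalytic subunits were not called between the lines. PSMB5 was at 0.10 (SE 0.17), PSMB6 at -0.38 (SE 0.19) and PSMB7 at 0.02 (SE 0.22), and the inducible PSMB8, PSMB9 and PSMB10 were at -0.47 (SE 0.30), -0.86 (SE 0.51) and -0.04 (SE 0.27). The lid subunits PSMD11, PSMD12 and PSMD14 were at -0.39 (SE 0.19), -0.51 (SE 0.18) and -0.10 (SE 0.23), and PSMD4 was at 0.04 (SE 0.31). The activators PSME1, PSME2 and PSME4 were at -0.28, -0.24 and 0.26, each with an SE of 0.16. PSMD12 and PSMA6, at -0.58 (SE 0.22), had unadjusted p-values of 0.0158 and 0.025 and groups that did not overlap. Probes not in use were at 0.06 for PSMA6, 0.14 for PSME1 and -0.04 and 0.43 for PSMD4, none called.

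**Figure D4:**
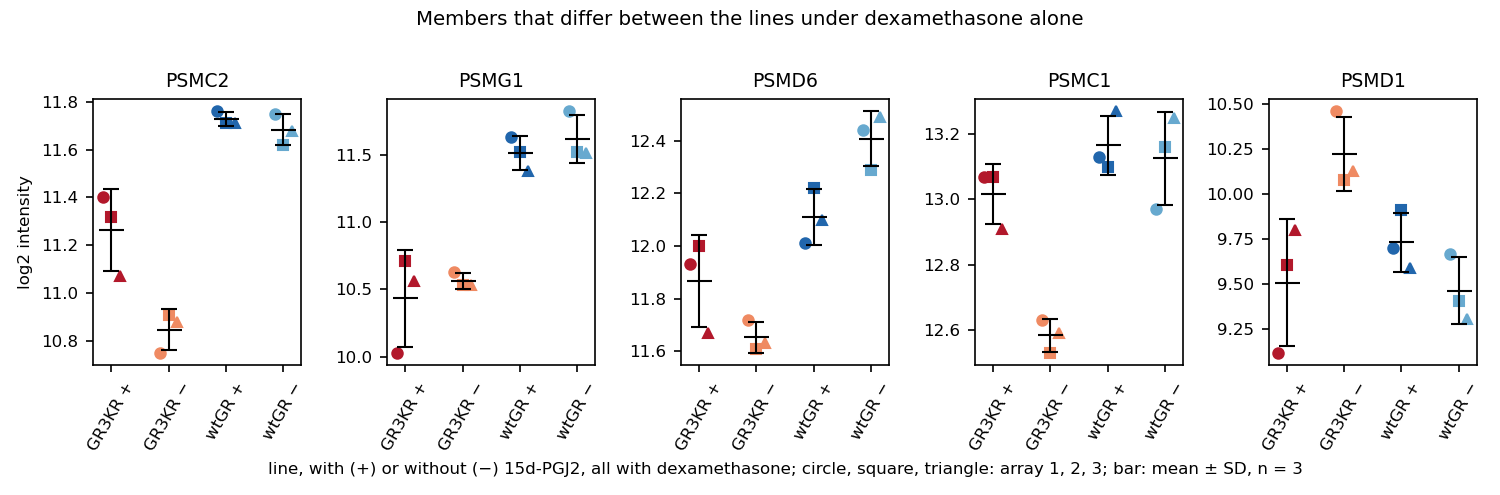
Log2 intensity of the 5 members called between the lines under dexamethasone alone, for each array of the 4 groups, with (+) and without (−) 15d-PGJ2 and with the mean and SD of 3 arrays. PSMC2 and PSMG1 sit lower on all GR3KR arrays than on all wtGR arrays in both treatments, and PSMD1 sits higher in GR3KR cells under dexamethasone alone.

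With 15d-PGJ2 added, the comparison of the lines rests again on the arrays that stand apart. In GR3KR cells 12 members were higher and 6 lower than in wtGR cells (limma, adjusted p under 0.05), where 32.7% of all genes were called higher and 18.7% lower, 51.4% in all. Without arrays 1 and 2 of GR3KR cells with 15d-PGJ2, 1 was higher and 2 lower, where 10.6% and 7.11% of all genes were called. These were PSMB4 at 0.81 (SE 0.23, adjusted p = 0.0417), PSMC2 at -0.65 (SE 0.15, adjusted p = 0.0236) and PSMG1 at -0.93 (SE 0.18, adjusted p = 0.0132). With the probe index as a covariate 0 were called, where 2.55% of all genes were. The count was 10 without array 2 of GR3KR cells with 15d-PGJ2 or array 1 or 2 of wtGR cells with 15d-PGJ2. Those fits called 4863, 4712 and 4725 of the 12337 genes. Cyclic loess gave 9 higher and 9 lower, where 2877 and 2770 of all genes were called.

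PSMC2 and PSMG1 were the 2 members called the same way in both comparisons of the lines. Of all genes 8.07% were called in the first and 51.4% in the second, and the share called the same way in both was not counted. The group means share no array. The comparisons are still of the same pair of lines, from 1 fit with 1 estimate of the spread, so they are not independent. With 15d-PGJ2, PSMG1 read 10.03, 10.71 and 10.56 in GR3KR cells, against 11.63, 11.52 and 11.38 in wtGR cells, a difference of -1.08 (SE 0.19, adjusted p = 0.00149). PSMC2 read 11.4, 11.32 and 11.07 in GR3KR cells with 15d-PGJ2, against 11.76, 11.71 and 11.71 in wtGR cells with 15d-PGJ2, a difference of -0.46 (SE 0.14, adjusted p = 0.0174). All GR3KR arrays were the lower ones for both genes in both treatments. With the probe index as a covariate neither passed in the 15d-PGJ2 groups, at -0.67 (SE 0.31) for PSMG1 and -0.71 (SE 0.20) for PSMC2.

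The other members called in the 15d-PGJ2 groups were PSMG3 at 1.75 (SE 0.34), PSMD5 at 1.41 (SE 0.26), PSMD9 at 1.35 (SE 0.25), PSMB4 at 1.17 (SE 0.20), PSMB7 at 0.78 (SE 0.22), PSMB2 at 0.73 (SE 0.23), PSME4 at 0.71 (SE 0.16) and PSMA2 at 0.70 (SE 0.26) on the higher side. PSMB3, PSMA5, PSME1 and PSMA1 were called at 0.62, 0.59, 0.45 and 0.44. Members lower in GR3KR cells included PSMC4, at least 12.5-fold lower, PSMC6 at -1.75 (SE 0.52), PSMD3 at -1.69 (SE 0.53) and PSMD11 at -0.60 (SE 0.19). PSMB5, PSMB6, PSMB8, PSMB9 and PSMB10 were at 0.27, 0.09, 0.32, -1.14 and 0.64, and PSMD4, PSMD12, PSMD14 and PSME2 at -0.53, -0.37, 0.11 and -0.21, none called. Among genes whose probe in use did not pass, probes not in use were called lower in 5, with PSMA4 at -1.60 against 0.03, PSMA6 at -2.34 against -0.10, PSMC1 at -2.61 against -0.15, PSMD6 at -2.22 against -0.24, and PSMD10 at least 8.61-fold and at least 1.69-fold lower against -0.09. In PSMA1 and PSMC6 both probes were called in opposite directions. The other probe of PSMA1 was at least 6.11-fold lower against 0.44 in use. That of PSMC6 was higher against -1.75 in use, with no bound, as it was detected on 2 of 3 arrays of GR3KR cells with 15d-PGJ2. It passed the detection filter only through those arrays, so its call is no support for a difference. PSMA3 was at 0.20 against -1.03. The other PSMC4 probes were lower and not called, with no bound, as each was detected on 2 of 3 arrays of wtGR cells with 15d-PGJ2.

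Genes that work with the proteasome but fall outside the rule were taken from a list of 49 symbols, of which 38 were measured. In wtGR cells 1 of the 38 rose with 15d-PGJ2 and 0 fell, where 0.219% of all genes were called. That gene was ZFAND2A, which encodes a proteasome-binding protein known to be induced by arsenite. It read 10.81, 10.74 and 10.82 with 15d-PGJ2, against 8.96, 9.19 and 9.6 with dexamethasone alone, a difference of 1.54 (SE 0.20, adjusted p = 0.0114). The groups lay well apart, and 0 of the 41 proteasome members passed on the same arrays.

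In GR3KR cells 9 of the 38 rose and 8 fell with 15d-PGJ2, where 30.7% of all genes were called higher and 14.8% lower. Without arrays 1 and 2 the count was 1 higher and 0 lower, where 0.462% of all genes were called, and that gene was ZFAND2A at 1.68 (SE 0.27, adjusted p = 0.0435). With the probe index as a covariate 0 were called. ZFAND2A read 10.39, 10.51 and 10.18 with 15d-PGJ2, against 8.16, 8.74 and 8.46 with dexamethasone alone, a difference of 1.91 (SE 0.20, adjusted p = 0.000711), with array 3 also well above the 3 arrays without it. The largest falls were those of HLA-C, an antigen-presenting molecule, at -2.43 (SE 0.42), MAFG, a partner of NFE2L1 and NFE2L2 that was detected on 10 of the 12 arrays, at -2.04 (SE 0.60), and NPLOC4, a substrate-delivery cofactor, at -1.80 (SE 0.52). On array 3 NPLOC4 and MAFG read 10.5 and 7.92, near their levels with dexamethasone alone of 10.56 to 10.93 and 7.89 to 8.36. HLA-C read 7.92 on array 3 and stayed below its levels with dexamethasone alone of 9.16 to 9.46. NFE2L1 read 9.78, 9.68 and 10.79 with 15d-PGJ2, against 10.12, 10.52 and 10.4 without it, and POMP, a chaperone of core maturation, read 12.31, 11.87 and 11.61, against 11.28, 11.58 and 11.54.

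The 15d-PGJ2 effect on these genes differed between the lines for 6 higher and 3 lower, where 17.6% and 7.07% of all genes were called, and for 0 without arrays 1 and 2 or with the probe index. The largest were those of MAFG at -3.44 (SE 0.85), HLA-C at -2.97 (SE 0.60), TXNL1, a proteasome-bound thioredoxin, at 1.37 (SE 0.35) and NGLY1 at 1.34 (SE 0.23). Under dexamethasone alone 2 of the 38 were lower in GR3KR cells and 0 higher, where 5.53% of all genes were called lower and 2.54% higher. NGLY1, the enzyme that removes sugar chains from NFE2L1 so that it can be activated, read 8.26, 8.51 and 8.2 in GR3KR cells, against 9.5, 9.29 and 9.47 in wtGR cells. This fall of NGLY1 was -1.10 (SE 0.17, adjusted p = 0.00291) with no overlap, and ZFAND2A was at -0.80 (SE 0.20, adjusted p = 0.0344). With 15d-PGJ2, 8 were higher and 7 lower in GR3KR cells, where 32.7% and 18.7% of all genes were called. Without arrays 1 and 2 of GR3KR cells with 15d-PGJ2 this was 1 higher, TXNL1 at 0.77, and 2 lower, MAFG at -1.62 and UBE3C at -0.57, where 10.6% and 7.11% of all genes were called, and with the probe index 0. On all arrays the largest were MAFG at -3.53 (SE 0.60), HLA-C at -2.18 (SE 0.42), NFE2L2 at -1.81 (SE 0.66) and NPLOC4 at -1.52 (SE 0.52).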

How the data were processed

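The deposited table of bead signals holds a linear intensity and a detection p-value for each of 47312 probes on 12 arrays, not normalized. A further deposited table holds log2 values. The submitters' processing notes name lumi, whose version and steps are not given in the sources used here. Its column medians were 6.93 to 6.98 and its ranks matched those of the intensities on each array (Spearman 1), while its centring and normalization stay unknown, so it served as an alternative.

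The neqc function (limma 3.58.1, R 4.3.3) corrected the background from the detection p-values with an offset of 16, applied quantile normalization and took log2. Probes detected at p under 0.01 on at least 3 arrays and annotated with 1 symbol were kept (16339 probes, 12337 genes), and each gene was read by its brightest kept probe. Comparing the symbols with a RefSeq table changed 0 of them.

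A model of 4 group means was fitted to all genes (lmFit, eBayes, 8 residual and 2.97 prior degrees of freedom), with 2-sided tests and Benjamini-Hochberg adjustment over all 12337 genes. The scripts were tested on simulated data. Where a group had undetected arrays, each dim array was set to at least its lowest signal among detected probes, so that such a fold is a lower bound. No bound is given where the brighter group also had an undetected array. The members, their roles and the gene lists were chosen with earlier results of these data known. Named were the called members with the largest change in each comparison, up to 8 each way (the 4 lowest p-values where there was no call), PSMB5 to PSMB10, PSMD4, PSMD11, PSMD12, PSMD14, PSME1, PSME2 and PSME4 throughout, every kept probe where probes of a gene differed in sign or call, and up to 4 called pathway genes; NFE2L1, POMP and PSMG2 were added after their values were seen. The number of arrays limits the precision. Promoters came from RefSeq tables on GRCh38.p14. Other background corrections, normalizations, filters and probe rules, array weights, a probe index, a replicate block and left-out arrays were tried as alternatives.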

Additional observations from a re-analysis of the deposited data

Results flagged for a closer look

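For 10 members the 15d-PGJ2 effect differed between GR3KR and wtGR cells by the test of the difference itself. The difference of effects was 1.72 for PSMG3, 1.55 for PSMD9, 1.28 for PSMD5, 1.21 for PSMA2, 1.14 for PSMB4, 0.94 for PSMB3, 0.73 for PSME1, 0.67 for PSMA5, -0.99 for PSMD1 and -6.55 for PSMC4, on the log2 scale. PSMC4 was below detection on all 3 arrays of GR3KR cells with 15d-PGJ2, so its fitted value has no exact size. Its readings also followed the order of the probe index over all arrays. Over all genes 24.7% passed the same test. The effects on PSMA2 were 0.61 (SE 0.26) in GR3KR cells and -0.61 (SE 0.26) in wtGR cells. Without arrays 1 and 2 of GR3KR cells with 15d-PGJ2 the effect of 15d-PGJ2 on PSMA2 in GR3KR cells was 0.01 (SE 0.20). The 10 calls were lost without those arrays, which leaves 1 array in the group, and with the probe index, lowest on those arrays, as a covariate. Nearly all or all calls over all genes were lost in these fits too, so the losses decide nothing about these members.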

How the results depend on the processing

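The 0 calls for 15d-PGJ2 in wtGR cells stayed 0 under all alternatives run with limma, with 0 to 15 members at an unadjusted p under 0.05. The 15 came with median scaling, where 3188 of the 12337 genes had such a p. Leaving out 1 array at a time gave 0 to 0 called members there, 5 to 27 for 15d-PGJ2 in GR3KR cells, 0 to 17 for the difference of effects, 2 to 7 between the lines under dexamethasone alone and 10 to 25 between them with 15d-PGJ2. In the same order, these fits called 6 to 109, 2501 to 7693, 128 to 6501, 392 to 1784 and 4712 to 7837 of the 12337 genes. For 15d-PGJ2 in GR3KR cells, 16 calls became 7 with median scaling, 8 with array weights, and 0 without arrays 1 and 2 of the 15d-PGJ2 group (also without array 3 of wtGR cells with dexamethasone alone) or with the probe index as a covariate. For the difference of effects, 10 calls became 5 with cyclic loess, 6 with median scaling, and 0 without those arrays (2 or 3) or with the index. Between the lines under dexamethasone alone, 5 calls became 2 with the mean of kept probes, 3 with every kept probe as a feature, and 8 with array weights or without those arrays (2 or 3). Between the lines with 15d-PGJ2, 18 calls became 3 without the 2 arrays, 9 without the 3, 0 with the index, and 28 of 58 with every kept probe as a feature. Over all 12337 genes, array weights gave 3431 calls for 15d-PGJ2 in GR3KR cells and 2128 between the lines under dexamethasone alone. Cyclic loess gave 1496 for the difference of effects. Every kept probe and the 3-array alternative were chosen after seeing the data.

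Some genes changed sign. With the index, PSMA5, PSMB6, PSMB10, PSMC3 and PSMD5 were at -0.03, -0.11, -0.27, -0.01 and -0.02 for 15d-PGJ2 in GR3KR cells, PSMA2 was at 0 for the difference of effects, and PSMA2, PSMB3, PSMC6, PSMD11 and PSME1 were at -0.36, -0.08, 0.56, 0.10 and -0.02 between the lines with 15d-PGJ2. With the mean of kept probes PSMC1 was at -0.56 for 15d-PGJ2 in GR3KR cells and PSMA1 at -1.47 between the lines with 15d-PGJ2, since their probes differ in sign. The cause of the other changes was not tested. Median scaling put the median of all genes at -0.37 for 15d-PGJ2 in wtGR cells, -0.08 in GR3KR cells and -0.31 between the lines under dexamethasone alone.

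Replicate numbers were shared by the groups. Deviations of same-numbered arrays correlated above 0.1 in 6 of 18 pairs (r from -0.671 to 0.705). Those 6 are all the pairs of number 1 (0.618 to 0.705) and number 3 (0.168 to 0.677) among the other 3 groups than GR3KR cells with 15d-PGJ2. The pairs of number 2 among these groups ran from -0.671 to 0.081. The main fits do not pair arrays by number, and whether the numbers mark samples handled together was not tested. With the replicate block the counts were 0, 13, 5, 3 and 17 in the order of the comparisons above, where 11, 5451, 2225, 781 and 6373 of the 12337 genes were called. The chip as a block was not run, because the headers used here name no chip. Signals near background limit PSMB8, PSMB9, PSMC4 and the probes not in use of PSMA1, PSMC6, PSMD10 and PSMG1.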
